A study of Caenorhabditis elegans with 12 samples.

Results

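Replicate set B of the wild-type strain N2 was described here: the 3 arrays whose sample titles carry the letter B, at 15 °C, after 3 h at 25 °C and after 12 h at 25 °C. They were set against the 6 N2 arrays of sets A and 1 within the same condition. These are 9 of the 12 arrays of the series. Each array held the total RNA of adult Caenorhabditis elegans, labelled with Cy3 and hybridised to a single-colour Agilent array of 43603 distinct probes. The other 3 arrays, 1 in each set, held daf-2(e1370) adults, mutant in the insulin-like receptor, after 12 h at 25 °C.

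All worms were grown at 15 °C under well-fed conditions before any shift, per the labels, and temperature was the only treatment. Neither the number of worms per sample nor whether the sets were separate cultures is given in the sources used here. The source names number sets A and 1 alike as replicate 1 and set B as replicate 2. Should A and 1 share their worms, a condition has fewer than 3 independent samples. Set B was chosen by its sperm-gene signals on these N2 arrays, which had been seen to be high. Its differences from sets A and 1 in N2 are therefore given as a description, with no test.

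The adult hermaphrodite of C. elegans makes its own sperm. Germ cells first form sperm late in larval life and then switch to oocytes for the rest of adulthood, and the sperm are kept in the spermatheca until they fertilise the passing oocytes. Genes for sperm proteins are transcribed in germ cells that are committed to sperm, whereas genes for oocytes and eggshell mark the later phase. Outside the germline, the epidermis makes the collagens of the cuticle in waves timed to the molts, and the pharynx is lined by a cuticle of its own.

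Signals are log2 values relative to the 75th percentile of the array, and differences are log2 differences, where 1 is a 2-fold difference. A gene was called apart when the set B array lay more than 1 above both other arrays, or more than 1 below both, in all 3 conditions. Of 13486 measured genes, 13293 had a value on all 9 N2 arrays. Each set was hybridised on 1 slide, and the files of sets A and B give the same scan day and those of set 1 another, so set, slide and culture cannot be told apart. The share of probes well above background was 55.6% to 61.4% in sets B and A and 80.8% to 84.9% in set 1. Across genes at 15 °C the set B array correlated at 0.918 with set A and 0.928 with set 1, while A and 1 correlated at 0.981. After 12 h these values were 0.983, 0.957 and 0.972.

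Past the limit of 1, set B was far more often above both other sets than below. It was apart and higher for 629 genes (4.73% of the 13293), and apart and lower for 4 (0.0301%). Without a limit on size the sides were nearly equal: set B lay above both other arrays in all conditions for 1987 genes (14.9%) and below both for 1809 (13.6%). With quantile normalization these counts were 1842 and 2320, and with median centring 1358 and 2202. By the rule with the limit, set A was apart and higher for 4 genes and lower for 30, and set 1 was apart and higher for 136 and lower for 14. Of the 629 genes, 63 were on the lists of sperm genes and 30 were numbered cuticle collagens. A further 405 (64.4%) carried no 3- or 4-letter gene name, against 39.7% of all 13293 genes. All 3 set B arrays had 628 of the 629 well above background, and all 3 set A arrays had 252. The genes just inside the limit were col-155, gldi-10 and nsph-2, with smallest gaps of 1.00, 1.01 and 1.02, and just outside it were dbd-4, cyc-2.2 and col-10, with 0.999, 0.997 and 0.971.

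The difference was largest before the shift. Over the 629 genes the median difference between set B and the mean of sets A and 1 was 4.42 at 15 °C, 2.84 after 3 h and 2.00 after 12 h, and it was larger at 15 °C than after 12 h for 627 of them. Over all genes the median difference was −0.09, −0.03 and −0.00 in the same order. Counted without regard to the other conditions, 1294 genes (9.65%) lay more than 1 above the mean of A and 1 at 15 °C, 1279 (9.54%) after 3 h and 803 (5.99%) after 12 h. Those lying more than 1 below were 420 (3.13%), 405 (3.02%) and 363 (2.71%). Higher calls thus made up 75.5%, 76.0% and 68.9% of both kinds. With each array centred on its median, which moves the median of all genes at 15 °C to −0.39, this share was 51.8%, 61.2% and 71.9%. It was 62.2% at 15 °C with quantile normalization, and 87.0% after 12 h with normexp background correction. The share after 12 h also depended on the set compared. It was 84.3% against set A alone but 46.5% against set 1 alone, with 895 genes higher and 1030 lower.

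The major sperm proteins had the largest share of members apart of any list (92.6%, against 4.73% of all genes). Set B was chosen by its sperm-gene signals, so this share is no independent support. Major sperm protein builds the filaments on which the nematode sperm crawls and, once released, signals oocytes to mature. All 27 measured msp genes lay above both other arrays in all 3 conditions, and 25 of them were apart; over all genes 14.9% lay above both in all 3. The exceptions were msp-76 and msp-79, whose gaps to set A after 12 h were 0.66 and 0.87. The msp genes resemble each other closely, so that their probes may share signal and the 27 values are not independent.

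Set B had median msp signals of 6.11 before the shift, 6.07 after 3 h and 5.78 after 12 h. In set A it was 1.69, 3.54 and 4.37 in the same order, and in set 1 it was 1.88, 3.75 and 2.66. Set B was thus the highest at every time, and sets A and 1 were close to each other at 15 °C and 3 h but not at 12 h. Set A then exceeded set 1 by more than 1 for 27 of the 27 genes, against 4.11% of all genes. Among single genes, msp-37 had 5.80 in set B at 15 °C, against 1.14 in set A and 1.34 in set 1. After 12 h its signals were 5.40 in set B, 3.40 in set A and 2.33 in set 1.

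**Figure D1:**
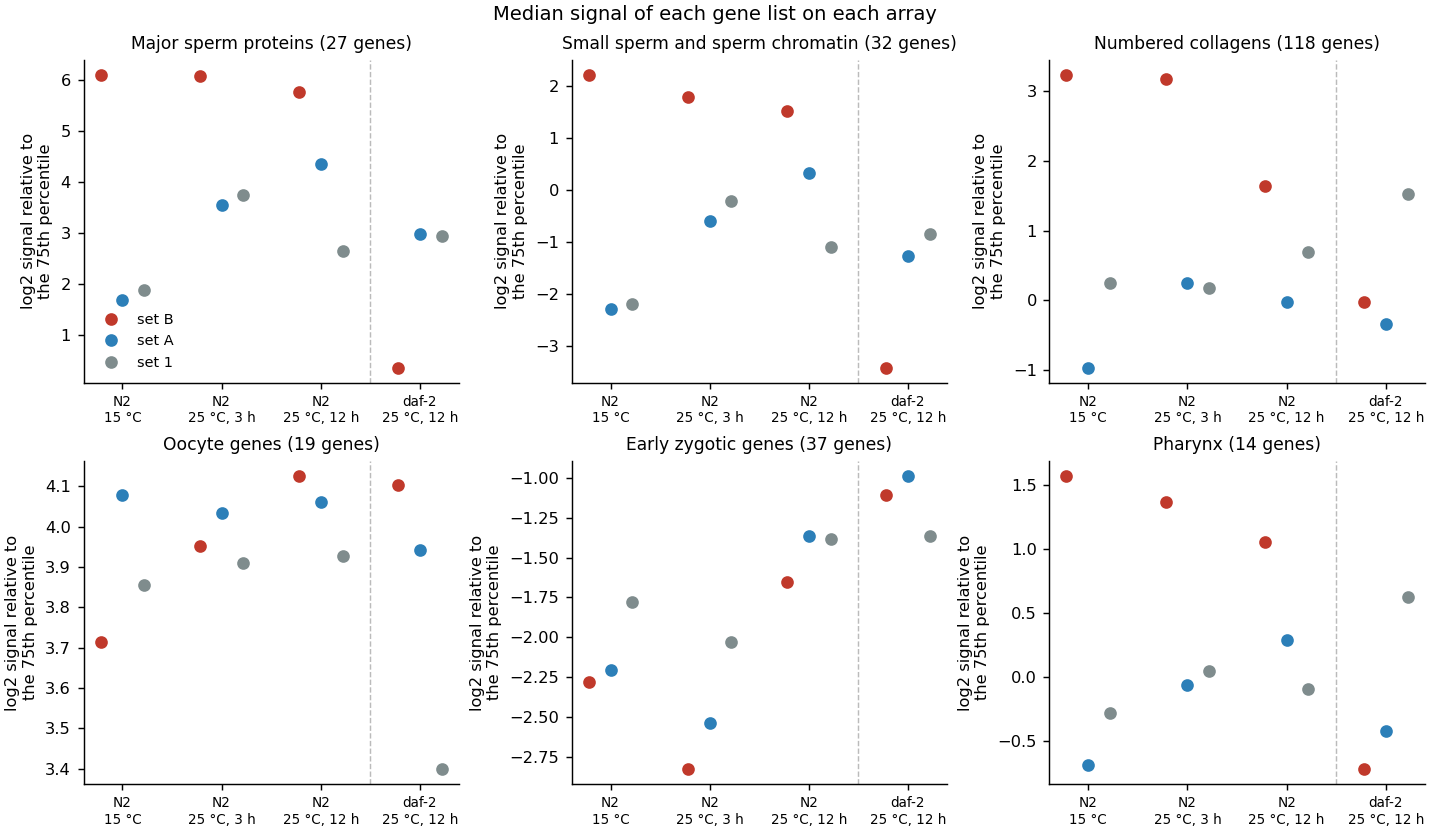
Median log2 signal, relative to the 75th percentile of the array, of 6 gene lists on each of the 12 arrays, with the N2 conditions left of the dashed line and daf-2 right of it; each point is 1 array, red for set B, blue for set A and grey for set 1. Set B is highest for both sperm lists in every N2 condition, with msp medians of 6.11, 6.07 and 5.78, and lowest for them in daf-2.

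Small sperm proteins and proteins of sperm chromatin followed the same pattern, with 28 of 32 measured genes apart (87.5%, against 4.73% of all genes). Their median differences were 4.75, 2.87 and 2.15 at the 3 times. The gene htas-1, a histone H2A variant of sperm, had 1.07 in set B at 15 °C, against −4.32 in set A and −3.82 in set 1. After 3 h it had 1.07, against −2.28 and −2.16, and after 12 h 0.48, against −1.18 and −2.89. At no time did set B overlap the others. The 4 genes not apart were ssp-37, nspd-1, nspd-7 and nspd-9, each with a gap under 1 after 12 h; their differences at 15 °C reached 3.99 for nspd-7, and for nspd-1 set B lay below the other arrays after 3 h.

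Of the sperm phosphatases and kinases, 4 of 5 were apart (80%, against 4.73% of all genes). The phosphatase gsp-3, a PP1 enzyme needed for sperm formation, had 2.27 in set B at 15 °C, against −2.61 in set A and −2.01 in set 1. Its relative gsp-4 had differences of 4.36, 3.24 and 2.45 at 15 °C, 3 h and 12 h. The kinase gene ttbk-7 was the member that did not differ by 1 in any condition.

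Genes for the formation, activation and fertilising function of sperm were mixed. Of 20 measured, 6 were apart (30%, against 4.73% of all genes). Above both other arrays in all conditions lay 13 (65%, against 14.9%), and 1 (5%, against 13.6%) lay below. The gene spe-11, which supplies a sperm factor to the early embryo, had −2.25 in set B at 15 °C, against −7.01 in set A and −5.86 in set 1, although set A was not well above background there. Another 7 members exceeded the mean of A and 1 by more than 1 at 15 °C without being apart, among them spe-15 (1.61), spe-41 (1.48) and spe-58, for which set A was not well above background. The genes spe-39, spe-44, spe-48, spe-5 and zipt-7.1 had negative differences at 15 °C, down to −1.30 for spe-5. A further 19 genes of this list were too dim to be measured, and 9 of those were well above background on all 3 set B arrays. Of these 9, 8 were so on none of the 3 set A arrays and 8 on all 3 set 1 arrays, on which more probes of all kinds were detected. The receptor-like gene spe-9 was well above background on 1 set B array, 0 set A arrays and 3 set 1 arrays, so it gave no comparison.

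Regulators of the sperm fate and of spermatogenesis mostly lay close to the other sets. Of 17 with all values, 2 were apart (11.8%, against 4.73% of all genes). These were alg-3, an Argonaute protein of spermatogenesis, and cpb-2, a relative of a cytoplasmic polyadenylation factor. The alg-3 signal was −0.97 in set B at 15 °C, against −5.36 in set A and −4.96 in set 1; set A was not well above background there. By contrast fog-1, which is required for the sperm fate, had 0.80 in set B at 15 °C, against 1.18 in set A and 0.98 in set 1. Its differences in the 3 conditions were −0.29, −0.33 and 0.08. The sex-determining genes tra-2, fem-1 and tra-1 had differences at 15 °C of −0.40, −0.25 and −0.54. The histone gene his-70 was the only 1 of 45 genes on the histone list that was apart (2.22%, against 4.73% of all genes), with differences of 5.15, 2.91 and 2.55. That list does not hold htas-1, which was counted with the small sperm proteins. At 15 °C set A was not well above background for his-70, so its first value is not exact.

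Markers of males were examined because males make sperm throughout adult life. Of 13 such genes on the array, 1 could be measured. This was cwp-4, a gene of male-specific neurons, with −4.88 in set B at 15 °C, against −4.66 in set A and −4.41 in set 1. After 3 h it had −4.76, against −4.96 and −4.62, and after 12 h −4.63, against −5.13 and −4.37. At both later times cwp-4 was well above background in sets B and 1 but not in set A, and at 15 °C in set 1 only. The polycystin genes lov-1 and pkd-2 of male sensory neurons were well above background on 0 of 3 set B arrays, 0 of 3 set A arrays and 3 of 3 set 1 arrays. The same held for try-5, a protease of seminal fluid. Of the 12 genes too dim to be measured, 10 were well above background on 0 of the 3 set B arrays and 2 on 1, all 12 were so on 0 set A arrays, and 7 on all 3 set 1 arrays. In set B these 12 genes were thus mostly not well above background, whereas cwp-4 was dim but detected there after the shift. The gene her-1, which promotes male development, lay below both other arrays in all conditions, with differences of −0.94, −0.53 and −0.79.

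Cuticle collagens were another group with many members apart. Of 113 numbered collagens with all values, 30 were apart (26.5%, against 4.73% of all genes). Above both other arrays in all conditions lay 66 (58.4%), against 14.9% of all genes. By contrast 6 (5.31%) lay below both throughout, against 13.6% of all genes. Among these was col-33, with differences of −1.42, −1.94 and −3.14 at the 3 times. Over the whole list the median difference was 1.17 at 15 °C, 1.54 at 3 h and 0.47 at 12 h, below those of the major and small sperm protein lists. The 30 that were apart, which the limit selects, had medians of 5.19, 3.82 and 2.35. Of the 12 genes with a letter name whose smallest gap to the other sets was widest, 10 were collagens, and the other two were abu-1 and his-70. The gene col-88 had 3.71 in set B at 15 °C, against −3.71 in set A and −2.14 in set 1. After 3 h it had 3.33, against −0.98 and −2.36, and after 12 h 1.64, against −2.77 and −1.55.

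Other collagens among the 30 showed the same order. The signal of col-162 was 5.64 in set B at 15 °C, against −1.41 in set A and 0.74 in set 1, and 3.65 in set B after 12 h, against −0.09 and 0.83. The difference for col-49 was 6.95 at 15 °C, where set A was not well above background, and 3.10 after 12 h. The median signal over the 30 collagens of set B was 3.42 at 15 °C, 3.28 after 3 h and 1.67 after 12 h. In set A it was −2.88, −0.74 and −1.25, and in set 1 it was −0.84, −0.71 and −0.62. Over the 63 sperm genes the set B medians were 3.71, 3.64 and 2.94, against −1.18, 0.51 and 1.46 in set A and −0.78, 1.02 and 0.13 in set 1. Sets A and 1 also stood differently to each other after 12 h. Set A exceeded set 1 by more than 1 for 2 of the 30 collagens and for 55 of the 63 sperm genes, and was under it by more than 1 for 8 of the 30 collagens, against 7.38% of all genes.

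Collagens that mark the adult cuticle varied. The adult collagen col-19 had 6.96 in set B at 15 °C, against 6.37 in both set A and set 1, and 6.41 in set B after 12 h, against 6.42 and 6.41. The adult collagen col-7 had differences of 0.46, 0.52 and −0.09 on its brighter probe, but its 2 probes disagreed, with mean differences of 0.30 and 2.40. Another, col-62, was apart, with 2.27 in set B at 15 °C, against −2.46 and −1.18. The 6 furrow collagens, which shape the annular furrows, had median differences of 1.05 and 0.81 at 15 °C and 3 h but of −0.72 after 12 h, and 0 were apart. These values depended on the set compared: at 15 °C the median of set B minus set A was 1.61 and that of set B minus set 1 was 0.12, and after 12 h they were 0.08 and −1.45.

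**Figure D2:**
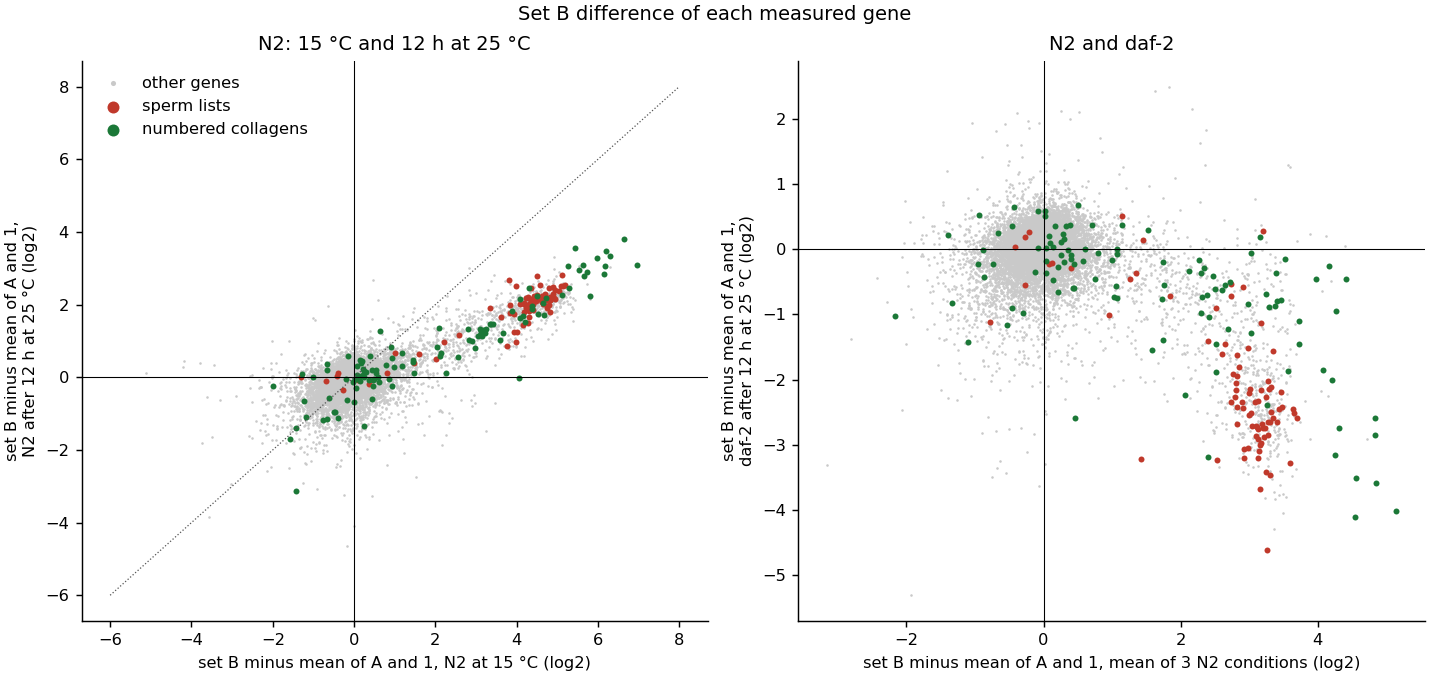
Each point is 1 gene, and both axes give the signal of set B minus the mean of sets A and 1 (log2); the left panel sets N2 after 12 h at 25 °C against N2 at 15 °C with a dotted line of equality, and the right panel sets daf-2 against the mean of the 3 N2 conditions. At left the 63 sperm-list genes (red) and 30 collagens (green) that were apart in N2 all lie below the line of equality, while some other members such as spe-5 lie above it. At right 59 of those 63 sperm genes, but 10 of the 30 collagens, lie more than 1 below both other daf-2 arrays.

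Other genes of the epidermis and the molt gave smaller differences. Of 48 hedgehog-related and patched-related genes, which act in the epidermis of larvae, 3 were apart (6.25%, against 4.73% of all genes) and 16 (33.3%) lay above both other arrays in all conditions, against 14.9% of all genes. The ground-like gene grl-16 had 2.77 in set B at 15 °C, against −4.42 in set A and −1.36 in set 1, and its 3 probes agreed in direction. Genes of molting had median differences of 0.73, 0.37 and −0.15 at the 3 times. The member with the largest difference, mlt-8, had 2.51, 2.37 and 0.36 in the same order. The molting gene mlt-10 had differences of 0.76, 0.99 and 0.05. The stage regulator lin-29, which directs the change from larval to adult epidermis, had 0.49, 0.44 and 0.28, with set B above both others each time.

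Genes of the pharynx were also higher. The median difference of 14 pharyngeal genes was 1.03 before the shift, 0.68 after 3 h and 0.31 after 12 h, and 7 of the 13 with all values (53.8%) lay above both other arrays throughout, against 14.9% of all genes. The gene phat-4, expressed in the pharyngeal glands, was apart, with 2.34 in set B at 15 °C, against −1.35 in set A and −1.09 in set 1. Its relative phat-5 ran the other way, with −2.90 at 15 °C, but was not well above background on any set B array. Glutamine- and asparagine-rich abu and pqn genes, a list chosen after its values had been seen, had 7 of 44 members apart (15.9%, against 4.73% of all genes). These were abu-1, abu-4, abu-6, abu-10, abu-15, pqn-74 and pqn-78. The median difference of the whole list was only 0.22, 0.23 and 0.21 in the 3 conditions, and −0.08 at 15 °C with median centring. Of the 44, 6 (13.6%) lay below both other arrays throughout, against the same 13.6% of all genes. The 7 selected by the limit had medians of 4.47, 3.49 and 2.48. The 2 probes of abu-1 disagreed in size, with mean differences of 3.89 and 0.59.

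Small nematode-specific peptides of the nspa, nspb, nspc, nspe and nsph families were also chosen after their values had been seen. Of 43 members 18 were apart (41.9%, against 4.73% of all genes), with 9 of 12 nspb and 4 of 4 nspa genes among them. Of 101 C-type lectins 5 were apart (4.95%), close to the 4.73% of all genes. One of them, clec-151, had −1.68 in set B at 15 °C, against −7.16 in set A and −6.16 in set 1, where set A was not well above background. Among 307 genes with F-box or MATH domains only math-32 was apart (0.326%, against 4.73% of all genes). At 15 °C it was at least 17.3-fold higher in set B, since it was not well above background in sets A and 1.

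Oocyte and general germline genes lay close to those of the other sets. None of 19 oocyte genes, 34 meiosis genes, 22 genes of germ granules and stem cells, 26 cell-cycle genes or 13 genes of eggshell and egg activation was apart in either direction, at backgrounds of 4.73% and 0.0301%. Their median differences were slightly negative at 15 °C and 3 h. For the oocyte list they were −0.34 and −0.27, against 0.17 after 12 h, and for meiosis −0.27 and −0.22, against 0.04 after 12 h. The yolk receptor gene rme-2 had 6.64 in set B at 15 °C, against 6.90 in set A and 6.85 in set 1, and 6.90 in set B after 12 h, against 6.91 and 6.66. The germline genes glp-1 and gld-1 had differences of −0.39 and −0.43 at 15 °C and of 0.01 and −0.15 after 12 h. At 15 °C the medians of the sperm and oocyte lists thus had opposite signs and very unequal sizes. In whole-worm RNA, fewer cells of a type and less RNA per cell cannot be told apart.

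Genes of the early embryo were lower in set B. Of 37 early zygotic genes (sdz, vet and pes), which are among the first that the embryo transcribes, 24 (64.9%) lay below both other arrays in all conditions, against 13.6% of all genes, and 2 lay above. Their median differences were −0.58, −0.49 and −0.38. Set A was itself below set 1, by medians of 0.39, 0.47 and 0.42, so that against set A alone set B was lower by 0.37, 0.24 and 0.18. The gene sdz-29 had −4.48 in set B at 15 °C, against −3.58 in set A and −2.58 in set 1. Of F-box and MATH-domain genes, 112 of 307 (36.5%) lay below both other arrays throughout, with median differences of −0.44, −0.43 and −0.38. Many of these genes are dim, and set A was below set 1 here too, by medians of 0.37 to 0.44.

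At 15 °C histone genes and yolk proteins of set B lay further below set 1 than below set A. The median histone difference was −0.50 at 15 °C. Against set A alone it was −0.15, and against set 1 alone −0.74. The 4 vitellogenins with a value on every array at 15 °C, yolk proteins made in the intestine, had a median difference of −0.36 there, and vit-6 had 6.21 in set B, against 6.58 in set A and 7.20 in set 1. After 12 h set B was not lower than set A by the median. The medians against set A were then 0.10 for histones and 0.15 for vitellogenins, and those against set 1 were −0.50 and −0.41. The part of detection and scanning, which differed between set 1 and the other sets, was not tested in any of these small differences.

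Muscle, respiratory chain, neuronal, gonad sheath and intestinal genes had smaller median differences than the numbered collagens. Of 15 body wall muscle genes with all values, 9 (60%) lay above both other arrays throughout, against 14.9% of all genes, with median differences of 0.46, 0.30 and 0.22. The myosin gene myo-3 had 2.59 in set B at 15 °C, against 1.23 and 1.60, whereas ttn-1 had 4.77, against 3.94 in set A and 5.92 in set 1, and its 4 probes had mean differences of −1.13 to 0.33. Respiratory chain genes were above both in 21 of 40 cases (52.5%, against the same 14.9%), with medians of 0.22, 0.15 and 0.14, and those at 15 °C and 3 h turned negative (−0.09 and −0.06) when arrays were centred on their median. The medians of neuronal genes and of those of the gonad sheath and spermatheca lay between −0.07 and 0.19, and those at 15 °C and 3 h were negative with arrays centred on their median. Of 15 intestinal genes, 4 (26.7%) lay above both other arrays throughout and 1 (6.67%) below, against 14.9% and 13.6% of all genes. Their median differences were 0.34, 0.28 and −0.005. The intestinal regulator elt-2 had differences of 0.42, 0.55 and 0.06.

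**Figure D3:**
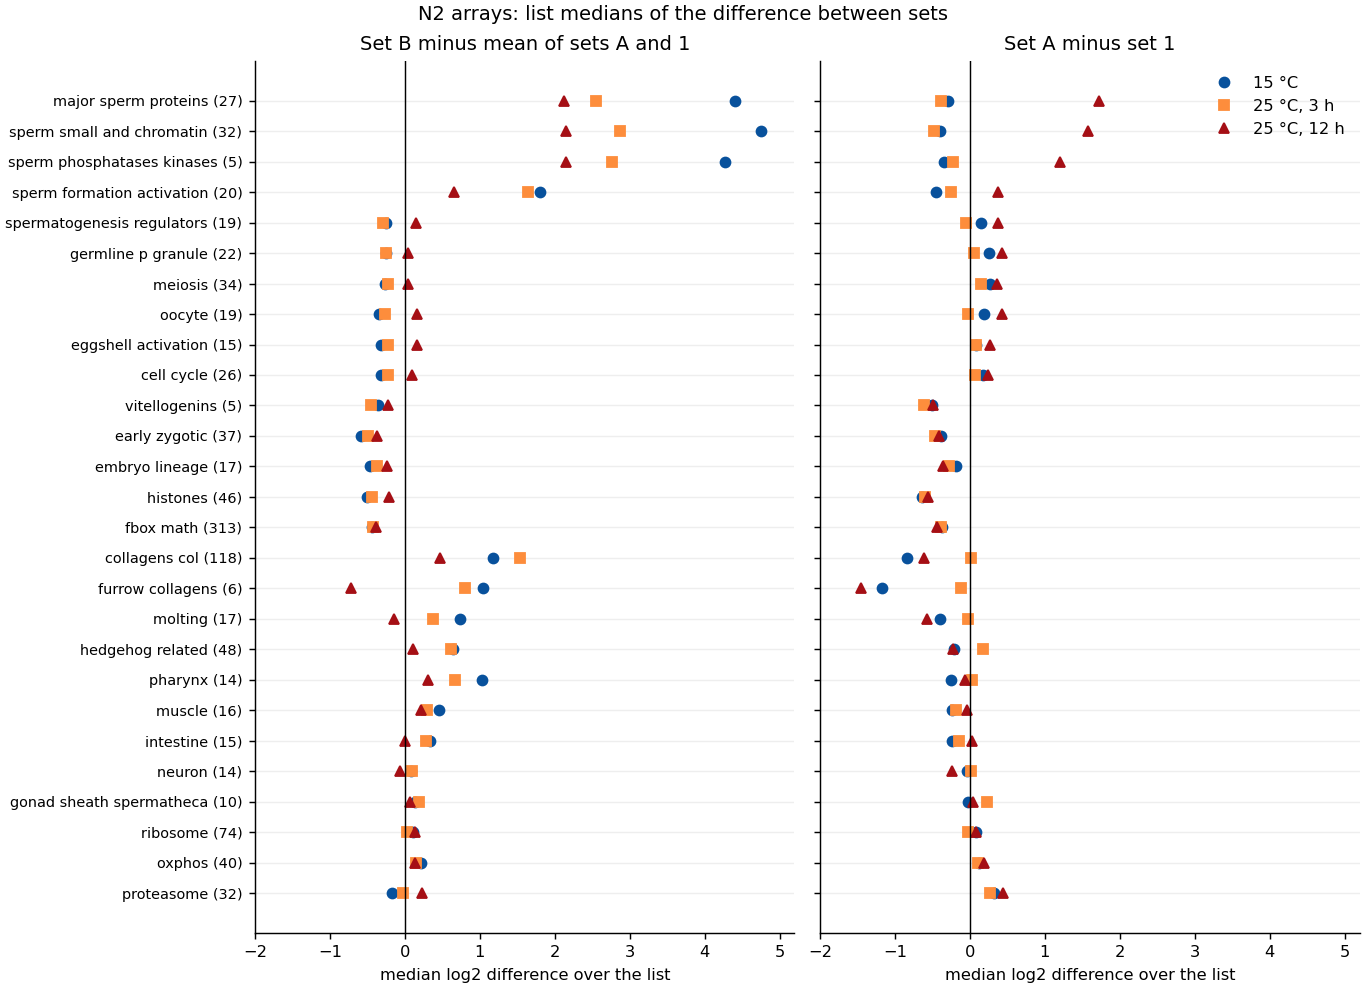
Median log2 difference over each of 27 gene lists in N2 (number of measured genes in brackets), for set B minus the mean of sets A and 1 at left and set A minus set 1 at right; circles are 15 °C, squares 3 h and triangles 12 h at 25 °C. The sperm lists reach 4.75 at left, collagens 1.54, and early zygotic, histone and F-box lists lie left of 0 in both panels.

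Genes lower by a wide margin were few. The 4 apart and lower were ilys-6, clec-55, C03H5.4 and F40H3.6. The invertebrate-type lysozyme gene ilys-6 had −3.27 in set B at 15 °C, against −1.46 in set A and 0.96 in set 1, and −5.04 in set B after 12 h, against −3.34 and −0.87. The lectin gene clec-55 was not well above background on any set B array. The Argonaute gene wago-5 had −3.25 in set B at 15 °C, against −1.98 and −0.74. For both ilys-6 and wago-5 set A was intermediate at every time. The intestinal lysozyme gene lys-7 had 1.11 in set B at 15 °C, against 2.79 and 3.69, and 1.32 in set B after 12 h, against 1.68 and 3.53. The phosphatase-like gene ppm-1.H had −0.84, against 0.51 and 2.31 at 15 °C.

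**Figure D4:**
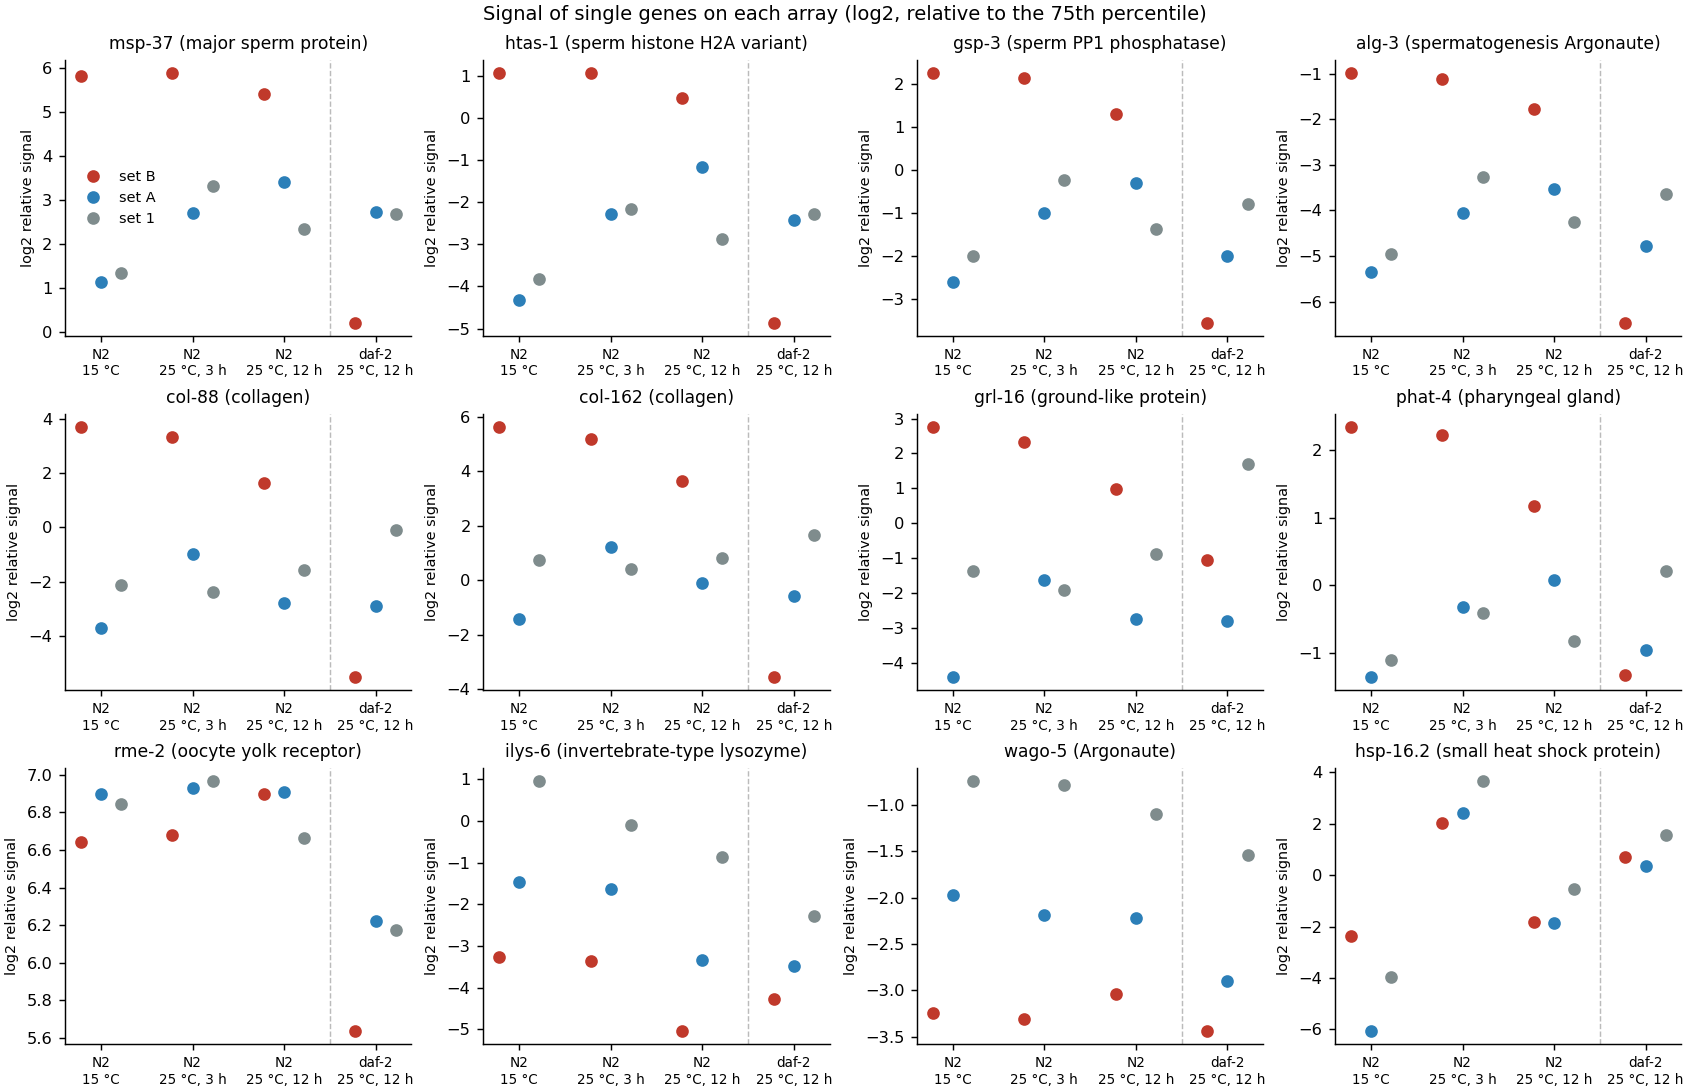
Log2 signal, relative to the 75th percentile of the array, of 12 genes on each of the 12 arrays; each point is 1 array, red for set B, blue for set A and grey for set 1, and vertical scales differ between panels. For msp-37, htas-1, gsp-3, alg-3 and the 2 collagens the red points lie above the others in all N2 conditions and below them in daf-2.

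The sets also differed in how far genes moved with temperature. From 15 °C to 3 h the median change of the 27 msp genes was −0.08 in set B, against 1.65 in set A and 1.88 in set 1. From 15 °C to 12 h it was −0.61 in set B, against 2.64 in set A and 0.66 in set 1. Early zygotic genes moved alike in all sets, with median changes from 15 °C to 12 h of 0.79 in set B, against 0.71 in set A and 0.64 in set 1. The collagens had a median change over 12 h of −0.86 in set B, against 0.18 and 0.07.

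Whether a change differed in set B was tested with limma over all genes, with the spread taken from pairs of A and 1 arrays. These tests use the arrays for which set B was singled out, so they are no independent support, and their residual spread rests on 1 pair per group. No gene passed an adjusted p of 0.05 for the change to 3 h, to 12 h, or from 3 h to 12 h. At an unadjusted p under 0.05 the change to 12 h was lower in set B for 590 genes (4.4%) and higher for 77 (0.574%). For the change to 3 h the unadjusted counts were 106 lower (0.791%) and 55 higher (0.41%). From 3 h to 12 h they were 144 lower (1.07%) and 60 higher (0.447%).

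The inducible chaperone gene hsp-16.2, whose product holds unfolding proteins, had 2.04 in set B after 3 h, against 2.44 in set A and 3.68 in set 1. At 15 °C it had −2.39 in set B, against −6.08 in set A, where it was not well above background, and −3.95 in set 1. Its difference between 3 h and 15 °C was 4.43 in set B, against 7.62 in set 1, and has no exact value in set A. For 3 other heat shock genes, chosen after their values were seen, hsp-16.41, hsp-16.1 and hsp-70, the differences between 3 h and 15 °C were 3.96, 4.08 and 1.45 in set B. They were 5.42, 4.71 and 4.61 in set A, and 5.37, 4.84 and 2.58 in set 1. Set B was the lowest for all 3, and for hsp-17 the sets lay between 2.53 and 2.77. This order did not hold over the list. The median change to 3 h of all 20 heat shock genes was 0.28 in set B, 0.32 in set A and 0.22 in set 1. Set B had the largest change for some members, among them dnj-12, dnj-13 and dnj-19, with 0.37, 0.45 and 0.33. Some hsp-16 genes are near-copies, so their probes may share signal.

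**Figure D5:**
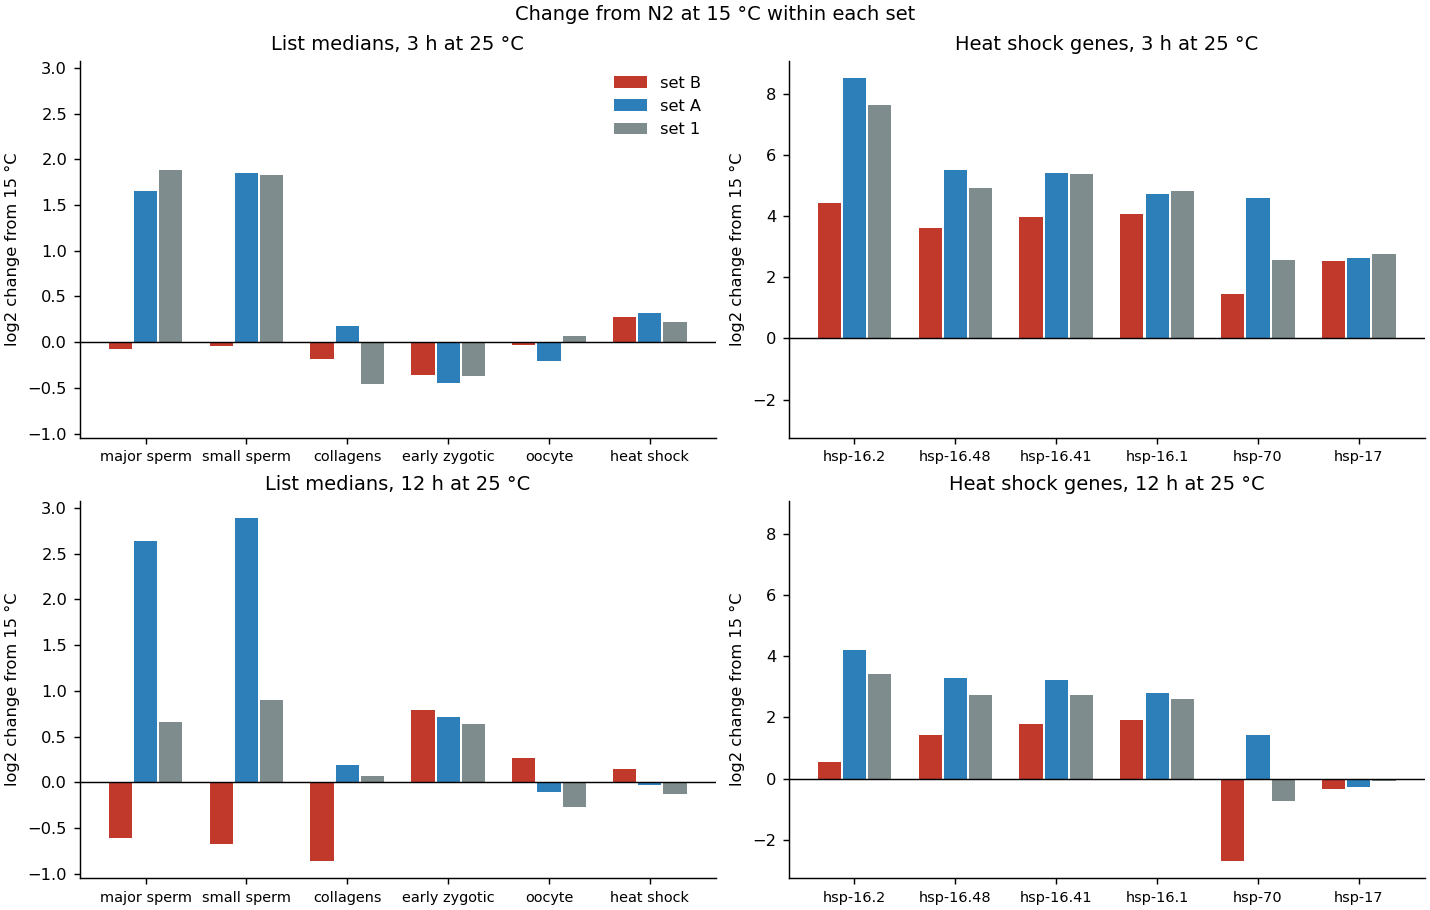
Log2 change from N2 at 15 °C to 3 h (top) and to 12 h (bottom) at 25 °C within each set, as medians over 6 gene lists at left and for 6 heat shock genes at right; bars are red for set B, blue for set A and grey for set 1, and each rests on 2 arrays. The hsp-16.2 bars of set A start from a signal that was not well above background. The msp median changed by −0.08 over 3 h in set B, against 1.65 and 1.88, and early zygotic genes moved alike in all sets.

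The daf-2 array of set B had the opposite sperm pattern. The median msp signal was 0.36 in set B, against 2.97 in set A and 2.94 in set 1, and all 27 genes lay more than 1 below both. Over all genes, 602 (4.5%) lay more than 1 below both other daf-2 arrays and 17 (0.127%) more than 1 above. Of the genes that were apart and higher in N2, 436 of 628 (69.4%) were among them, which is 72.4% of the 602. By group this was 59 of 63 sperm genes, 10 of 30 collagens and 2 of 7 abu and pqn genes. The signal of msp-37 was 0.20 in set B, against 2.73 and 2.67. That of htas-1 was −4.87, against −2.42 and −2.29.

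Collagens in daf-2 divided. The gene col-88 had −5.51 in set B, against −2.88 in set A and −0.10 in set 1. Others such as col-65, col-107 and col-66, chosen after their values were seen, were apart in N2 and differed in daf-2 by only −0.25, −0.15 and −0.05. Over the 30 collagens the daf-2 medians were −1.67 in set B, against −1.95 in set A and 0.87 in set 1. Set 1 rather than set B thus stood out in daf-2 for this group. Oocyte genes did not share the sperm difference, with a median difference of 0.20 in daf-2.

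No gene passed the adjusted limma test of the daf-2 set B array against the other 2, in which the lone array was assumed to vary like the others. Unadjusted, 667 genes were lower (4.97%) and 34 higher (0.253%) at p under 0.05, among them all 27 msp genes and 27 of 32 small sperm genes on the lower side. For msp-37 the difference was −2.50 ± 0.47 (SE, limma, adjusted p = 0.263). With the replicate set as a block 2 genes passed, ppm-1.H (−5.31, limma adjusted p = 0.00989) and arrd-18 (−3.10, limma adjusted p = 0.0479), and neither is a sperm gene on the lists. Without the N2 12 h array of set A, or without that of set 1, 82 genes passed and all were lower in set B. Leaving out either removes that pair from the residual spread. The same genes passed in both cases.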

How the data were processed

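The measurements were single-colour Agilent arrays, extracted with Feature Extraction 10.10.1.1 per the file headers. The deposited spot intensity was the background-subtracted processed signal, and raw spot and background intensities were used only for an alternative. A deposited table of the whole series held linear intensity values that matched these signals up to 1 constant per array. No step beyond that is given in the sources used here.

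Control spots and spots with outlier flags were left out, log2 of the processed signal was taken, and each array's 75th percentile over probes was subtracted. Of 43603 probes, 34320 were assigned to 1 gene, 30978 by sequence name and 3342 by accession through the RefSeq table of WBcel235, which was used for names only, and 9283 had none. A probe was kept where, in 1 or more of the 4 groups, its flag well above background was set on each of the 3 arrays, and the probe with the highest mean stood for its gene. Of 13486 genes, 262 lacked a value on some array and entered the fits without it.

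Tests used limma 3.58.1 in R 4.3.3 over 12 arrays with 8 means (set B apart from sets A and 1 in each group), two-sided, with Benjamini-Hochberg adjustment over all genes; lone set B arrays were assumed to vary like the others. P-values reflect only how these arrays vary, which may be technical, and the number of arrays limits the precision. The fit was tested on simulated data for the change to 12 h: of 200 genes of 13224 with 4 added on the log2 scale, 129 (64.5%) were recovered and 8 others were called. The simulated noise was independent between arrays, without the correlation within sets given below, so this share need not hold for the real tests. Python 3.11.15 with pandas 2.3.3, numpy 2.4.6 and matplotlib 3.10.9 did the rest.

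Members and lists were chosen with earlier results of these data known. Named were the 12 genes with letter names at either end of the smallest gap, up to 3 members of each list with the largest mean difference, genes past a test, and a preset group of markers; other genes were chosen after their values were seen. Deviations from group means correlated between N2 arrays of a set at 0.45 to 0.89. The group mean includes set B, so its recurring difference also enters the deviations of sets A and 1. The values for A and 1 therefore cannot show whether those sets pair samples. Between N2 and daf-2 arrays of set B the correlations were −0.59 to −0.40, against 0.12 to 0.39 in set A and 0.01 to 0.13 in set 1. Alternatives changed the normalization, background correction, source of values, probe filter, probe choice, comparison set, limit, conditions, replicate block, variance prior and arrays in the fit.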

Additional observations from a re-analysis of the deposited data

Results flagged for a closer look

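For 8 of the 40 main gene lists set B had 1 sign in all 3 N2 conditions and the other in daf-2, both in the median difference from set A and in that from set 1. This difference between genotypes was not tested, and each daf-2 value rests on 1 set B array. These 8 lists were higher in set B in N2. The median daf-2 differences of the sperm lists were −2.54 for major sperm proteins, −2.55 for small sperm and chromatin proteins, −0.63 for sperm formation and activation, and −1.57 for sperm phosphatases and kinases. For numbered collagens the value was −0.457, where daf-2 set A itself lay below set 1 (median of set A minus set 1, −0.79). The values for the adult cuticle, muscle and pharynx lists were −0.0226, −0.218 and −0.146. Other lists turned sign in the median difference from the mean of sets A and 1, though not against each set. Early zygotic, embryo lineage and histone genes, lower in set B in N2, had daf-2 values of 0.12, 0.10 and 0.02. Hedgehog-related genes and those of the gonad sheath and spermatheca, higher in N2, had −0.12 and −0.08. Of the lists chosen after values were seen, the small peptides had −0.22 in daf-2, lower than both sets, and the abu and pqn genes −0.12.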

How the results depend on the processing

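The 629 genes apart and higher numbered 334 with normexp background correction and 187 when every array had to be well above background. They numbered 32 at a log2 limit of 2 and 961 without the 12 h condition. The other alternatives gave 586 to 864. The 4 genes apart and lower became 9 with quantile normalization, 11 with median centring, 0 with normexp, 2 in the authors' series table, 1 with all 12 arrays well above background and 10 with no filter. They became 14 against set A alone, 318 against set 1 alone, 0 at log2 2, 38 at 1.5-fold, and 17, 12 and 31 without the 15 °C, 3 h or 12 h condition.

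At 15 °C the 1294 higher genes became 521 with all 12 arrays well above background and 3717 with no filter. The 420 lower genes became 717 with quantile normalization, 1017 with median centring, 168 with normexp, 203 with all 12 arrays well above background, 698 with no filter and 899 against set 1 alone. After 3 h the 1279 higher became 502 and 3161 under the same 2 filters. The 405 lower became 690 with median centring, 158 with normexp, 200 and 875 under the filters, 241 against set A alone and 943 against set 1 alone. After 12 h the 803 higher became 257 and 2227, and the 363 lower became 91 with normexp, 142 and 886 under the filters, 164 against set A alone and 1030 against set 1 alone. A filter changes how many genes are tested; the cause of the other shifts was not tested.

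Adjusted limma tests gave 1 gene (bcl-7) with normexp for the change to 12 h and for that from 3 h to 12 h. For the daf-2 difference they gave 4 with all 12 arrays well above background, 3 with a trended variance prior, 2 with the replicate block, and 0 to 82 with 1 array left out. The replicate block changed no other call. The 25 msp genes apart fell to 0 at log2 2, and the 30 collagens to 14. Of 1128 list medians under alternatives 1042 kept their sign, and of 1237 values of named genes 1228 did. Median centring turned 25 of 126 list medians. Dim genes have the least certain differences, since set A was often near background at 15 °C.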
